A study of Mus musculus and Rattus norvegicus with 6 samples.

Results

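Livers of leptin-deficient and wild-type (WT) rats, both injected with saline, were compared on 1 array each. These 2 arrays were taken by their labels from the 6 of the series, and 9817 of the 14217 genes with a single symbol on the rat platform could be measured in the pair. The mutant rats were homozygous for Lepmkyo, an allele of the leptin gene, and the WT rats were their littermates. Both had the F344/NSlc background, were labelled male, were 20 weeks old and received saline into the peritoneal cavity 6 hours before the liver was taken. The titles and genotype fields write Lepmyo/Lepmkyo and the source field names Lepob, while the description and design text give Lepmkyo/Lepmkyo. The third rat array came from Lepmkyo/Lepmkyo rats given leptin in the same way, and its signal is shown beside the other 2 without being part of the comparison. The mouse arrays, used at the end, came from Lepob/Lepob and WT mice of C57/BL6J background, also labelled male, 20 weeks old and injected with saline. The labels do not say whether each array was hybridised with RNA of 1 rat or of several, so the spread between animals is not known.

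Leptin is a hormone of fat cells that reports the size of the fat stores to the brain and restrains food intake. Animals that lack it overeat, become obese and insulin resistant, and store fat in the liver. The liver turns surplus sugar into fatty acids after meals and makes glucose and ketone bodies during fasting, and insulin, glucagon, growth hormone and glucocorticoids shift it between these states. In rats, growth hormone also sets many liver genes at different levels in males and females.

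Values are array signals on a linear scale, and a ratio is the mutant saline signal over the WT saline signal, given as a fold or as its log2. Signals under 97.0, the floor, were raised to it, so that a fold against such a signal is a bound and is written "at least". With 1 array in each group there was no replicate spread, no test and no p-value. "Higher" and "lower" describe these 2 arrays, and a gene was counted at 2-fold. Signals of different genes are not compared with each other, since each probe set has its own brightness.

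The labelled sex did not match the signals of X-linked RNA. Xist, the RNA that coats the inactive X chromosome of female cells, was far above the floor on all 3 rat arrays. Its brightest probe set gave 5252 in WT, 3699 in the saline mutant and 2796 in the leptin-injected mutant, and its other 3 probe sets gave 978 to 5572. On the 3 mouse arrays the Xist signals were 3.1 to 54.3, all under the mouse floor of 82.7. Eif2s3y, a Y-linked translation factor, gave 783, 1256 and 1218 on the rat arrays in the same order, and Y-linked Uty gave 1600, 1173 and 1155. Another Uty probe set was under the floor on all 3 rat arrays, at 10.4, 36.0 and 25.8. Apart from it, signals of X-linked Xist and of the Y-linked genes were above the floor on every rat array. Xist and Uty were higher and Eif2s3y was lower in WT than in the mutants. These genes were chosen after their values had been seen. Sex composition and genotype cannot be told apart on 2 arrays, and leaving out either array leaves no comparison.

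The liver label was borne out by the hepatocyte markers, which were bright on both arrays: albumin (Alb) gave 42678 in WT and 37062 in the mutant, and transthyretin (Ttr) 38358 and 33234. Lep, the mutated gene, was under the floor on all 3 rat arrays at 4.0, 6.0 and 3.1, which leaves the genotype unchecked. Each rat array carried 31042 probe sets, and the array medians ran from 93.6 to 99.3.

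Of the 9817 measured genes, 294 (2.99%) were at least 2-fold higher in the mutant and 142 (1.45%) at least 2-fold lower. The median log2 ratio was 0.04, and the quartiles were -0.19 and 0.30. At 4-fold the counts were 29 higher and 17 lower, and at 8-fold 5 and 3. Of the 294 higher genes 58 had a bound in place of a ratio, and of the 142 lower genes 20. Among the dimmest 3272 genes 123 were higher and 54 lower, and among the brightest 3273 the counts were 70 and 57. Just past the limit on the higher side were Emilin1, Dbp and Perp, and just short of it Zfp703, Lima1 and Fam180a, all at 2-fold after rounding, with Zfp703 a bound because its WT signal was under the floor. On the lower side Zan, a bound with the mutant under the floor, Hdac6 and Klf12 lay just inside, and Akr1c19, Flvcr2 and Clstn1 just outside.

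**Figure D1:**
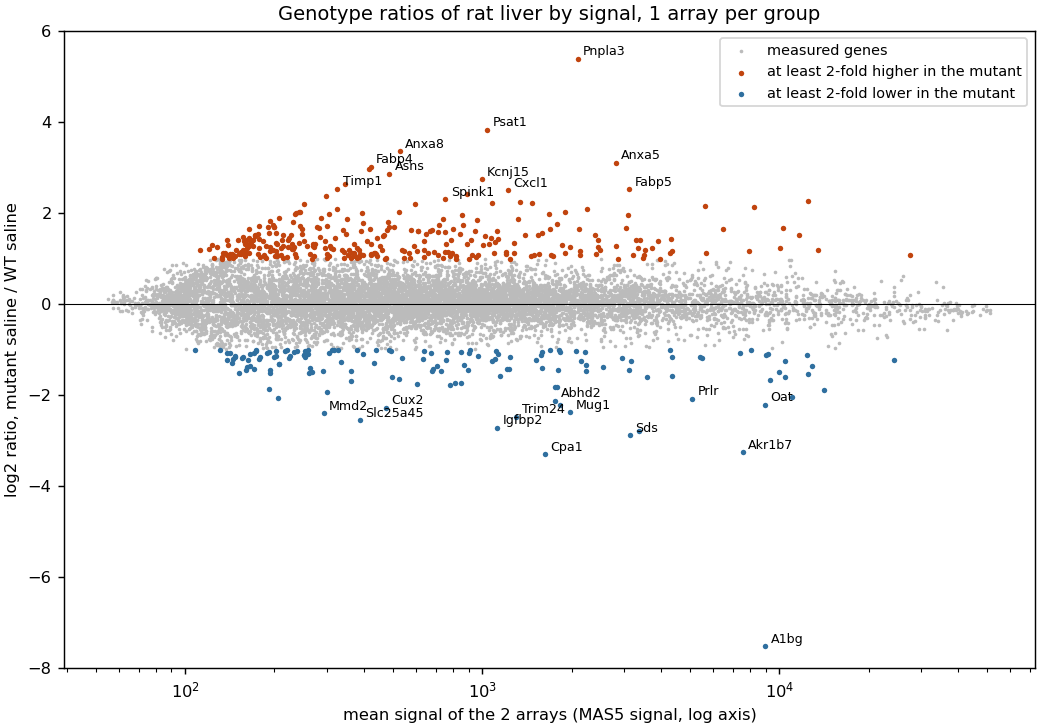
Log2 ratio of the mutant saline over the WT saline signal (vertical axis) against the mean signal of the 2 arrays (horizontal, log axis) for 9817 measured genes, 1 array per group; most of the named genes with the largest ratios are labelled. Coloured points are the 294 genes at least 2-fold higher and the 142 at least 2-fold lower, with Pnpla3 at 5.39 and A1bg at -7.53 as the extremes.

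The highest ratio of all belonged to Pnpla3, a lipid droplet enzyme that is made in the fed liver. Its brightest probe set gave 97.5 in WT, 4100 in the saline mutant and 4029 in the leptin-injected mutant, a 42.1-fold difference. The other probe sets of Pnpla3 also gave signals near or under the floor in WT, 79.6 and 25.3, against 1581 and 341 in the saline mutant. WT was the low array on all 3 probe sets, while both mutant arrays were alike.

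Fatty acid synthesis and desaturation formed one of the most shifted gene lists. At least 2-fold higher were 8 of its 17 measured members, counting Pnpla3 from above, and 0 were lower. The median log2 ratio was 0.76 against 0.04 over all genes. Acly, which makes cytosolic acetyl-CoA from citrate, gave 6007 in WT, 17248 in the saline mutant and 18698 in the leptin-injected mutant, 2.87-fold higher. Acss2, which makes acetyl-CoA from acetate, gave 1862, 4955 and 5957 in that order, 2.66-fold higher. Acaca, the carboxylase of the committed step, gave 2069, 9163 and 9290 on its brightest probe set, 4.43-fold higher, but 136, 125 and 143 on another, where the log2 ratio was -0.11. Fasn, the fatty acid synthase, gave 4298, 20667 and 22150, and both of its probe sets were higher, by 4.81-fold and by a log2 ratio of 2.80. For every one of these enzymes the leptin-injected mutant lay near the saline mutant.

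Of the enzymes that lengthen and desaturate the product, some were higher and others were not. Elovl6, an elongase, gave 679 in WT, 2680 in the saline mutant and 2111 in the leptin-injected mutant, with log2 ratios of 1.98 and 3.43 on its 2 probe sets. Scd, stearoyl-CoA desaturase 1, gave 17586, 37519 and 38705, 2.13-fold higher. Scd2, a second desaturase, gave 624, 1313 and 3233, so that here the leptin-injected mutant lay well above the saline mutant. In contrast, the desaturase Fads1 gave 10397, 10365 and 10286, the elongase Elovl2 was 1.17-fold lower, and Elovl5 was not higher on either of its probe sets. Me1, the malic enzyme that supplies NADPH, was 1.69-fold higher.

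Transcription factors of lipogenesis and sterol synthesis showed no such shift. Of 17 measured members 0 were 2-fold higher or lower and the median was -0.05. Srebf1, the insulin-responsive activator of lipogenic genes, gave 3077 in WT, 5789 in the saline mutant and 6377 in the leptin-injected mutant on its brightest probe set, 1.88-fold higher, but 837, 788 and 836 on another. Mlxipl, the sugar-responsive activator ChREBP, was 1.05-fold lower, and Insig1, which retains the sterol sensor in the endoplasmic reticulum, was 1.49-fold higher. Cholesterol synthesis and uptake had a median of 0.09 over 18 genes with 0 at 2-fold, with Lss 1.83-fold higher and Tm7sf2 1.81-fold lower.

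Sugar use showed smaller ratios in a single direction. All 20 measured genes of glycolysis, fructose use and the pentose phosphate pathway had ratios above 0, also after quantile normalization and after centring the arrays, with 4 at least 2-fold higher and a median of 0.35. Slc2a5, the fructose transporter, gave 466 in WT, 1425 in the saline mutant and 1442 in the leptin-injected mutant, 3.06-fold higher. Khk, which phosphorylates fructose, gave 7403, 14520 and 13496, 1.96-fold higher. Pklr, the liver pyruvate kinase, gave 2253, 4759 and 4883, with log2 ratios of 1.08 and 2.06 on its 2 probe sets. The pentose phosphate enzymes Pgd and Taldo1 were 2.41-fold and 2.23-fold higher and Tkt 1.86-fold. Glycogen metabolism had a median of 0.26 over 12 genes, with none at 2-fold.

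**Figure D2:**
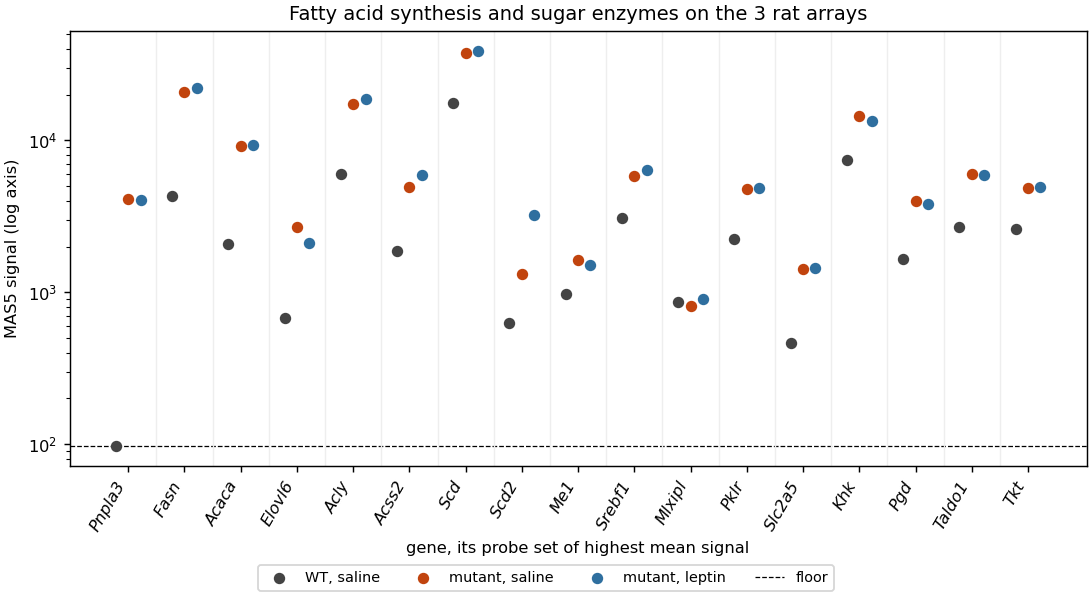
Signals (vertical, log axis) of fatty acid synthesis, lipogenic control and sugar enzymes on the 3 rat arrays, 1 point per array, with the floor of 97.0 dashed. Both mutant points lie above the WT point for every gene shown except Mlxipl, where the saline mutant had 815 against 858 in WT.

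Later steps of fat storage were less uniform. Of 18 measured genes of triglyceride and phospholipid synthesis 1 was 2-fold higher and 0 lower, and the median was 0.04. That gene was Gpam, the first acyltransferase of the pathway, at 150 in WT, 419 in the saline mutant and 231 in the leptin-injected mutant. The other probe set of Gpam gave 136, 186 and 132, a log2 ratio of 0.45. Of 20 lipid droplet proteins and lipases 3 were 2-fold higher and 0 lower. Fabp4, a fatty acid binding protein of fat cells and macrophages, gave 57.7, 785 and 504 and was at least 8.09-fold higher. Of the 10 adipocyte markers on the array, which include Fabp4, 5 were under the floor, among them Adipoq, Plin1 and Lep. Of the 5 measured, 1 was 2-fold higher and 0 lower, with Cidec 1.67-fold higher, Pparg at least 1.19-fold higher, Lipe 1.09-fold higher and Cfd 1.29-fold lower, and the part of fat cells in the Fabp4 ratio was not tested. Cidea, which promotes fusion of droplets, was 2.67-fold higher and the droplet enzyme Hsd17b13 2.34-fold, whereas the lysosomal lipase Lipa was 1.86-fold lower.

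Fatty acid uptake and activation held large ratios in both directions. Of 17 measured genes 1 was 2-fold higher and 4 lower, and the median was -0.12. Fabp5 gave 929 in WT, 5336 in the saline mutant and 5167 in the leptin-injected mutant, 5.75-fold higher. Its relative Fabp7 gave 6519, 2176 and 1452, 3.0-fold lower, and the fatty acid translocase Cd36 gave 4551, 1676 and 1463, 2.71-fold lower. The acyl-CoA ligase Acsl4 was 2.15-fold lower and Acsm5 at least 2.61-fold lower.

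Fatty acid oxidation differed little. Of 27 measured genes of the mitochondrial and peroxisomal pathways 0 were 2-fold higher and 2 lower, and the median was -0.13. The carnitine acetyltransferase Crat was 2.31-fold lower and the peroxisomal oxidase Acox3 2.17-fold. Cpt1a, the entry step of long-chain fatty acids into mitochondria, was lower by 1.44-fold on the brightest of its probe sets, at 12576 in WT and 8748 in the mutant, and had a log2 ratio of -2.40 on another, at 1795 and 341. Among 18 other targets of PPARA, the fasting-activated lipid receptor, 2 were higher and 1 lower. Fgf21, a fasting hormone of the liver, gave 555, 1695 and 1598, 3.05-fold higher. Vnn1, a pantetheinase, was 2.56-fold higher. Ppara itself was under the floor on all 3 rat arrays on its brightest probe set, at 31.3, 8.4 and 10.7. This gives no ratio and does not show that its RNA was absent.

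Bile acid synthesis and transport had the lowest median of the pathway lists, -0.47, with 15 of 18 genes below 0, 2 at least 2-fold lower and 0 higher. Cyp8b1, which sets the share of cholic acid, gave 14694 in WT, 6148 in the saline mutant and 5878 in the leptin-injected mutant, 2.39-fold lower. Abcg5, a sterol exporter, was at least 3.63-fold lower at 352, 32.0 and 55.2. The exporter Abcc2 was 1.93-fold lower. Cyp7a1, the rate-limiting enzyme of bile acid synthesis, gave 3411 and 3419 in WT and saline mutant and 7318 in the leptin-injected mutant. Among 21 lipoprotein genes Angptl8, an insulin-induced inhibitor of lipoprotein lipase, was 2.03-fold higher, and Apoa5, an activator of that lipase, 1.90-fold lower.

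Genes of the fasting response and of amino acid breakdown were lower where they were far apart, with a few exceptions. Of 22 measured genes of gluconeogenesis and fasting 4 were 2-fold lower and 1 higher, with a median of -0.21. Sds, serine dehydratase, gave 5527 in WT, 744 in the saline mutant and 526 in the leptin-injected mutant, 7.43-fold lower. Tat, tyrosine aminotransferase, gave 5897, 850 and 961, 6.94-fold lower. Igfbp1, a growth factor binding protein that insulin represses, gave 15768, 5208 and 3998, 3.03-fold lower, and the insulin receptor substrate Irs2 was 2.28-fold lower. The higher gene was Pck2, the mitochondrial carboxykinase, at 140, 364 and 482. The other probe set of Pck2 gave 74.2, 116 and 126, a log2 ratio of at least 0.25. Pck1, the cytosolic enzyme of gluconeogenesis, was 1.22-fold lower, at 34058 in WT and 27856 in the saline mutant. Large ratios were thus limited to a few members of this list.

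Of 32 amino acid breakdown genes 4 were lower and 1 higher. Besides Sds and Tat, which are in both lists, these were Oat, ornithine aminotransferase, at 14715 in WT, 3161 in the saline mutant and 4505 in the leptin-injected mutant, and the histidase Hal, 2.24-fold lower. Csad, of taurine synthesis, was 2.17-fold higher. In the urea cycle 12 of 13 genes were below 0 (11 after quantile normalization or centring). Asl, argininosuccinate lyase, was 2.19-fold lower at 12379, 5664 and 6610, and the others were under 2-fold on their brightest probe sets. For the mitochondrial carrier Slc25a15 the log2 ratio was -0.34 on the brightest probe set and between -0.66 and -2.11 on its others.

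Of 19 measured genes of methionine, one-carbon and serine metabolism 3 were 2-fold higher and 0 lower, at a median of 0.03, and the 3 all belong to serine synthesis. Psat1, of serine synthesis, gave 136 in WT, 1946 in the saline mutant and 1835 in the leptin-injected mutant, 14.3-fold higher. Phgdh, the first enzyme of that pathway, gave 5.8, 241 and 482, at least 2.48-fold higher, and Psph, the last, gave 253, 539 and 579, 2.13-fold higher. All 3 enzymes of the pathway were low in WT and higher on both mutant arrays. Cbs, which draws serine into cysteine synthesis, was 1.90-fold lower. Asns, asparagine synthetase, gave 117, 857 and 1093, 7.32-fold higher.

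The list of endoplasmic reticulum chaperones and amino acid stress genes had 6 of 26 members 2-fold higher and 0 lower, at a median of 0.04. The 6 were Asns, the stress transcription factor Atf3 (4.0-fold), the stress protein Nupr1 (3.15-fold), the pseudokinase Trib3 (3.01-fold), the glutathione-degrading enzyme Chac1 (2.28-fold) and the mTOR inhibitor Ddit4 (2.17-fold). The chaperone Hyou1 was 1.58-fold lower and Xbp1, a transcription factor of the unfolded protein response, 1.45-fold lower. Cytosolic heat shock chaperones had a median of -0.29 over 12 genes, with Hspa1a 2.86-fold lower at 389 in WT, 136 in the saline mutant and 159 in the leptin-injected mutant.

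Components of leptin and growth hormone signalling showed few large ratios. Of 19 measured genes of the leptin receptor and JAK-STAT list 2 were lower and 0 higher, with a median of 0.03. Lepr, the leptin receptor, gave 429 in WT, 539 in the saline mutant and 513 in the leptin-injected mutant on its brightest probe set, 1.26-fold higher. All its other probe sets were lower in the saline mutant, with log2 ratios of -0.53, -0.27 and -0.56, the last a bound. Lifr, a receptor of leukaemia inhibitory factor, gave 404, 5.8 and 1.4, at least 4.17-fold lower, and Socs2, a feedback inhibitor of growth hormone signalling, gave 227, 50.3 and 39.3, at least 2.34-fold lower. Socs3, the inhibitor induced by leptin and interleukin-6, was near the floor at 123, 80.8 and 94.4.

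In the insulin-like growth factor axis some binding proteins reached 2-fold, while others and the hormone did not. Igfbp3 was 1.04-fold higher, with a log2 ratio of 0.70 on its other probe set, and Igfbp4 was 1.09-fold lower. Igfbp2 gave 1953 in WT, 297 in the saline mutant and 178 in the leptin-injected mutant, 6.57-fold lower. Igfals, which holds the circulating complex together, was 2.28-fold lower and Igfbp7 2.26-fold higher. Igf1 was 1.17-fold lower, at 30103, 25637 and 26788. Counting Igfbp1, 3 of 10 members were lower and 1 higher. Insulin signalling, with 20 measured genes, had 1 higher, the translation inhibitor Eif4ebp1 at 2.07-fold, and 1 lower, Irs2.

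Growth hormone and sex-dependent genes of rat liver held the lowest ratio on the array. Its median was -0.23, and 8 of the 29 measured members were at least 2-fold lower and 0 higher. A1bg, a plasma protein of female rat liver, gave 17910 in WT, 33.5 in the saline mutant and 82.1 in the leptin-injected mutant, at least 185-fold lower. Akr1b7, an aldo-keto reductase, gave 13652, 1423 and 1244, 9.59-fold lower. Prlr, the prolactin receptor, gave 8245, 1946 and 2186, 4.24-fold lower, and the female-specific transcription factor Cux2 gave 787, 162 and 197, 4.86-fold lower with a log2 ratio of -2.28 on both of its probe sets. WT was the high array for each of them, and the mutant arrays were close to each other.

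Sorted by the sex in which they are known to predominate, in lists made after the values were seen, the genes parted. All 9 genes known as female-predominant in rat liver were lower in the mutant, 6 of them at least 2-fold, with a median of -1.53. They ran from the cytochrome P450 Cyp2c7, 1.13-fold lower, to A1bg, and included the steroid sulfotransferases Sult2a2 (2.88-fold lower) and Sult2a6 (2.33-fold) and Cyp3a9 (4.14-fold). Of 9 male-predominant genes 1 was 2-fold lower and 0 higher, with 5 above 0 and 4 below and a median of 0.12. Cyp2c11, the male-specific P450, gave 29009 in WT, 26255 in the saline mutant and 28878 in the leptin-injected mutant, and Cyp2c12, the female-specific one, gave 36492, 25122 and 28946. Both P450s were bright on all 3 arrays. The exception among male-predominant genes was Obp3, a urinary protein of the alpha-2u globulin family, at 22288, 6043 and 4573, 3.69-fold lower. Its near-identical relatives may share probes. The Xist signals given above were also higher in WT, and their part in these ratios was not tested.

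**Figure D3:**
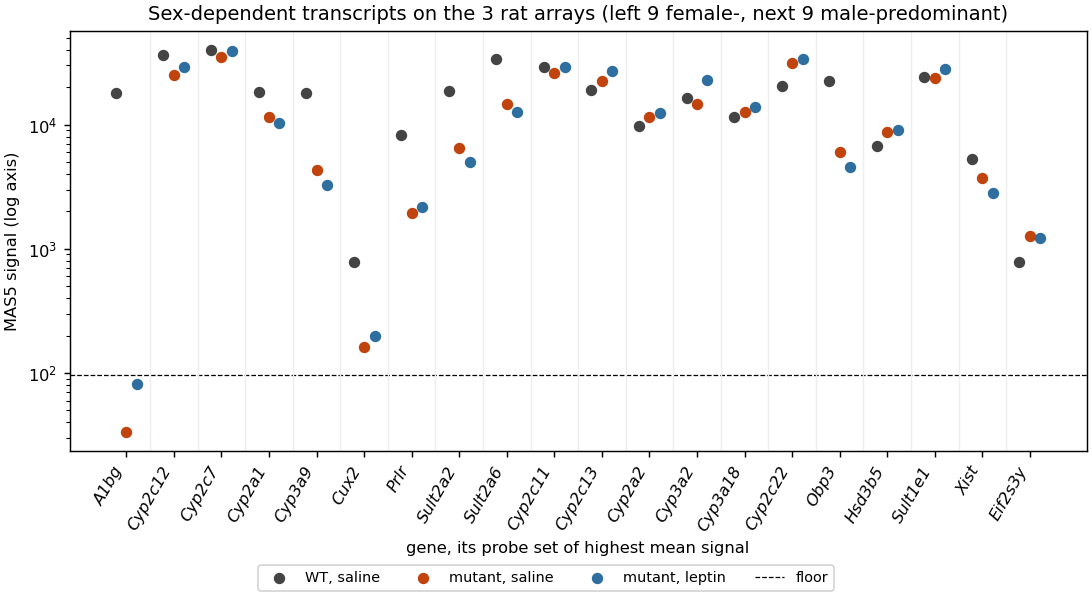
Signals (vertical, log axis) of 9 female-predominant genes, 9 male-predominant genes, X-linked Xist and Y-linked Eif2s3y on the 3 rat arrays, 1 point per array, with the floor of 97.0 dashed. WT is the highest of the 3 arrays for all 9 female-predominant genes and for Xist, while the male-predominant genes other than Obp3 differ by less than 2-fold between WT and the saline mutant.

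Xenobiotic metabolism shifted little as a whole. Of 24 cytochromes P450 and their regulators 2 were lower and 0 higher, with a median of -0.20. Apart from Cyp3a9 the lower one was Cyp1a2, an enzyme of caffeine and drug oxidation, at 14756 in WT, 5237 in the saline mutant and 6213 in the leptin-injected mutant. Nr1i2, the xenobiotic receptor PXR, was 1.90-fold lower. Of 31 conjugation and efflux genes 2 were higher, the glutathione transferases Gstp1 (2.74-fold) and Gstm3 (2.43-fold), and 2 lower, the acetyltransferase Nat8 (3.36-fold) and the glucuronosyltransferase Ugt2b10 (2.11-fold). Glutathione reductase (Gsr) was 2.77-fold lower and was the only one of 24 antioxidant genes at 2-fold. Mt2A, a metallothionein that binds zinc, gave 14255, 4437 and 6853, 3.21-fold lower.

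The cytoskeleton and annexin list had the highest median of the pathway lists, 0.99. All 25 measured members were above 0, also after quantile normalization and after centring, and 12 were at least 2-fold higher. Anxa5, a calcium-dependent binder of membrane phospholipid, gave 585 in WT, 5047 in the saline mutant and 4524 in the leptin-injected mutant, 8.63-fold higher. Anxa2 gave 213, 975 and 647, 4.58-fold higher, and the galectin Lgals3 gave 752, 3049 and 3039, 4.06-fold higher. The intermediate filament Vim was 2.65-fold higher and Tagln, of smooth muscle, at least 4.09-fold. With the floor at the 75th percentile the median of this list was 0.40.

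Extracellular matrix genes shared that direction. Of 25 measured genes 9 were 2-fold higher and 0 lower, and the median was 0.71. Col3a1, a fibrillar collagen, gave 1266 in WT, 4914 in the saline mutant and 5002 in the leptin-injected mutant, 3.88-fold higher. The proteoglycan Dcn was 3.32-fold higher, Col1a2 3.23-fold, the connective tissue growth factor Ccn2 4.73-fold and the protease inhibitor Timp1 at least 5.83-fold. Col1a1, the partner chain of Col1a2, had a log2 ratio of 0.11 on its brightest probe set and 0.62 on another.

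Marker lists of other liver cells differed in how far they shifted. Of 13 measured markers of stellate cells and fibroblasts 6 were 2-fold higher, and these were Timp1, Col3a1, Dcn, Col1a2, Vim and Reln. The 16 markers on the array, 3 of them under the floor, were also summed. The sum was 4632 in WT, 12209 in the saline mutant and 12326 in the leptin-injected mutant. Col3a1 alone gave 1266, 4914 and 5002 of these sums. Of the 13 measured, 10 had log2 ratios above 0 and 3 below, which were Rgs5 (-0.41), Acta2 (-0.11) and Gfap (-0.04), the last 2 bounds. Acta2 and Des, the muscle-type markers of activated and resting stellate cells, were near the floor. Acta2 gave 104 in WT and 62.0 in the saline mutant, and Des 107 and 110, a log2 ratio of 0.03. Medians were 0.34 over 17 macrophage markers, of which 2 were 2-fold higher, with a range of 0.24 to 0.36 over the alternative settings. They were 0.40 over 13 endothelial markers, of which 1 was, and 0.74 over 6 cholangiocyte markers, of which 2 were. Neutrophil markers had a median of 0.43 over 4 genes, of which 0 were at 2-fold. Of 3 measured red cell markers, haemoglobin Hbb gave 8301, 18750 and 19718, and Alas2, of haem synthesis in red cells, was 1.81-fold higher, but the anion exchanger Slc4a1 was 1.31-fold lower, and 2 more were under the floor. Lymphocyte markers had a median of -0.00 over 5 measured of 15, the other 10 being under the floor. In whole liver, more cells of a type and more RNA per cell cannot be told apart, and the part of cell composition in the matrix, cytoskeleton and macrophage ratios was not tested.

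All 16 measured hepatocyte markers had ratios below 0, with a median of -0.17, but after quantile normalization 12 were below 0 and 4 above. Tat was the 1 member at 2-fold. Cpa1, a pancreatic carboxypeptidase, gave 2948 in WT, 299 in the saline mutant and 207 in the leptin-injected mutant, 9.85-fold lower. Of the 6 pancreas genes on the array 3 were under the floor, and the elastase Cela1 was 1.57-fold higher. Only 1 of 7 skeletal muscle genes was measured.

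Immediate early and stress genes had 7 of 26 members 2-fold higher and 1 lower, and the median was 0.39. Tnfaip3, an inhibitor of NF-kappa B signalling, gave 418 in WT, 1497 in the saline mutant and 797 in the leptin-injected mutant. Myc gave 395, 1323 and 626, and Egr1 gave 1996, 4702 and 1708. For these genes, unlike the lipogenic enzymes, the leptin-injected mutant lay well below the saline mutant. Gadd45a was 3.16-fold higher, Klf6 3.03-fold and Jund 2.66-fold, while Gadd45b, of the same family as Gadd45a, was 2.71-fold lower.

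Interferon-induced genes had 6 of 24 members 2-fold higher and 0 lower, and the median was 0.20. Ubd, a ubiquitin-like protein, gave 4930 in WT, 15649 in the saline mutant and 14874 in the leptin-injected mutant, 3.17-fold higher, and the chemokine Cxcl9 gave 814, 2568 and 1966, 3.15-fold higher. Rsad2, an antiviral enzyme, was 2.80-fold higher, and in the other direction Irf9, a subunit of the interferon-responsive factor, was lower by 1.54-fold. For 25 acute phase proteins the median was -0.05, with 2 higher and 0 lower. A2m, alpha-2-macroglobulin, gave 115, 292 and 1981, and so was far higher in the leptin-injected mutant. C-reactive protein (Crp) was 1.66-fold lower and the iron hormone Hamp 1.65-fold lower. Of 29 complement and coagulation genes 0 were at 2-fold.

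Secreted regulators of the liver parted in both directions, with 6 of 20 higher and 3 lower. Inhbe, a subunit of activin E, gave 2161 in WT, 5683 in the saline mutant and 6148 in the leptin-injected mutant, 2.63-fold higher, whereas Inhbc, of activin C, gave 1066, 384 and 604, 2.78-fold lower. The stress cytokine Gdf15 was at least 2.95-fold higher and Gpnmb, a membrane protein of lipid-laden macrophages, 2.86-fold.

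Clock genes that peak with PER and DBP had a median of 0.44 for 13 genes, with 1 at 2-fold. Those of the opposite phase, that of BMAL1, had a median of -0.28 for 5 genes, with 0 at 2-fold, 2 of the 5 above 0 and a range of -0.29 to 0.0 over the alternative settings. Dbp, a clock output factor, gave 544 in WT, 1087 in the saline mutant and 1503 in the leptin-injected mutant, and the repressor Nr1d1 gave 312, 620 and 409. Bmal1, the core activator, gave 347, 195 and 114. The hour of collection was not stated. Fkbp5, a glucocorticoid-induced chaperone, was 2.89-fold higher, and Tsc22d3, another glucocorticoid-induced gene, 1.36-fold lower. Onecut1, a hepatocyte transcription factor, gave 5406, 1780 and 1597, 3.04-fold lower.

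Housekeeping lists stayed close to the centre. Oxidative phosphorylation had a median of 0.10 over 28 genes and cytosolic ribosomal proteins 0.03 over 15, with 0 members at 2-fold in either. Cell cycle genes had a median of 0.42 over 22 genes, but the 2 at 2-fold, Cdk1 and Cdkn3, were under the floor in WT, so their ratios are bounds.

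**Figure D4:**
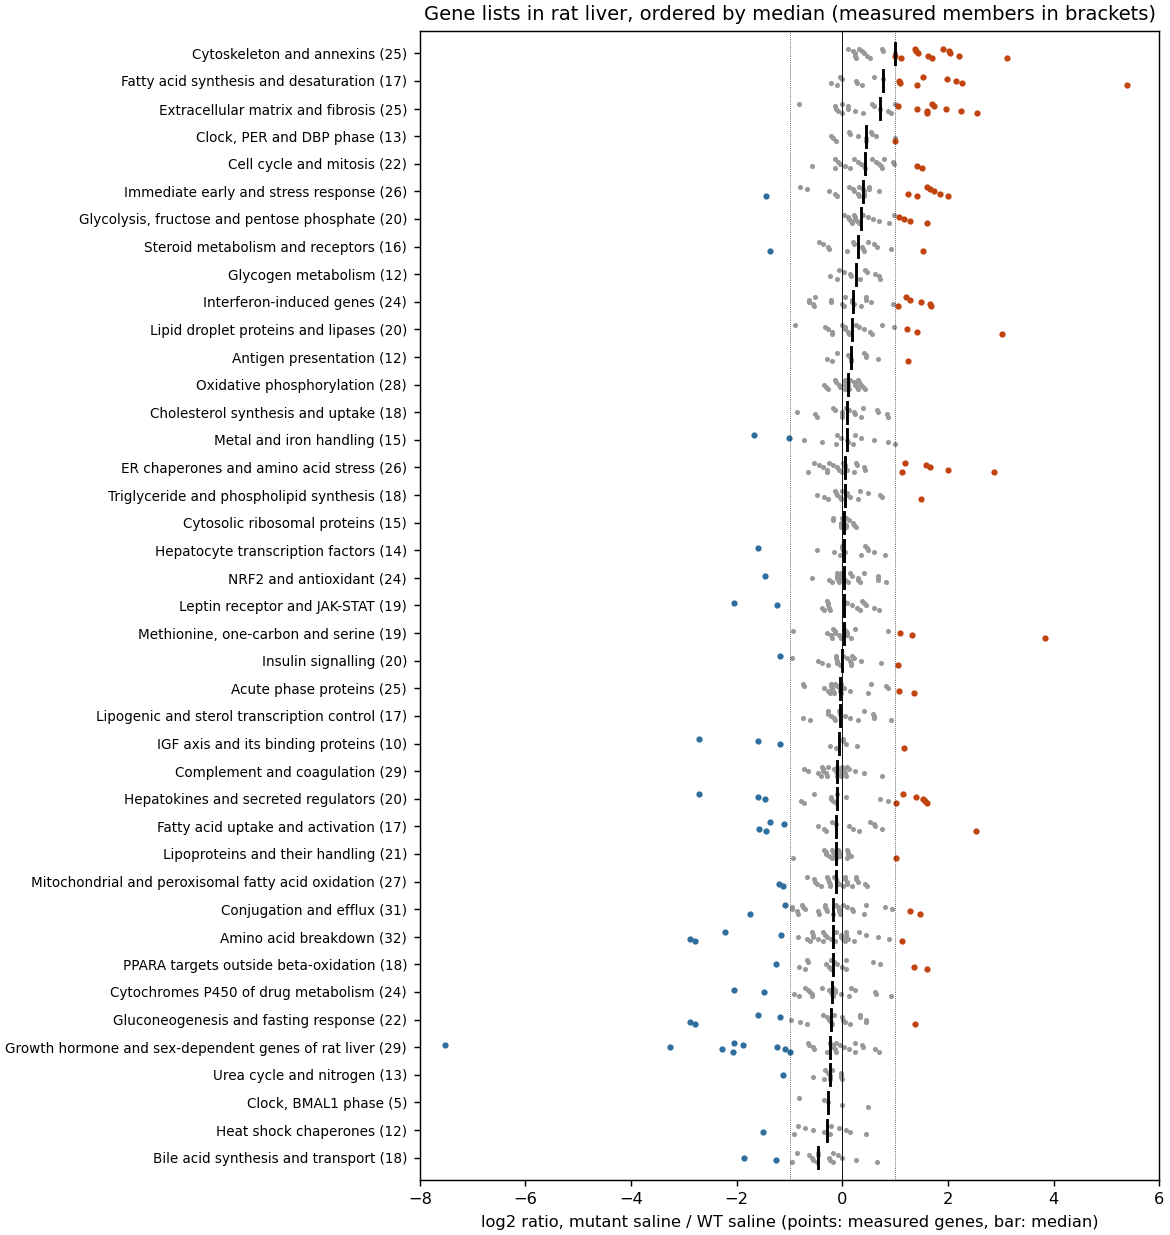
Log2 ratio of the mutant saline over the WT saline signal (horizontal axis) for each measured member of 41 gene lists, with a bar at the list median and lists ordered by it; red and blue points are at least 2-fold higher and lower. Medians run from -0.47 for bile acid synthesis and transport to 0.99 for the cytoskeleton and annexins, and most lists lie near the all-gene median of 0.04.

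Further genes had large ratios. Among the higher ones, the potassium channel Kcnj15 gave 259 in WT, 1733 in the saline mutant and 1358 in the leptin-injected mutant. The neutrophil chemokine Cxcl1 gave 368, 2078 and 1686, the trypsin inhibitor Spink1 gave 254, 1248 and 1350 and was higher on all 3 of its probe sets, and Wfdc21 gave 3063, 13400 and 17859. Anxa8 was at least 10.2-fold higher, the X-linked Tsx, known from testis, at least 7.87-fold, the lymphotoxin Ltb at least 6.20-fold and the endothelial proteoglycan Esm1 at least 5.21-fold. Among the lower ones, the transcriptional cofactor Trim24 gave 2210, 397 and 392, the protease inhibitor Mug1 gave 3313, 638 and 462, and the cadherin Cdh17 gave 2999, 649 and 536. The mitochondrial carrier Slc25a45 was 5.90-fold lower, the lipase Abhd2 4.38-fold and Mmd2 at least 5.28-fold. Akr1c14, a steroid-reducing enzyme, was lower by 2.58-fold on the brightest one, with log2 ratios of -1.37, -1.19 and -2.12 over its 3 probe sets.

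Probe sets of the same gene gave the only measure of spread, that of their disagreement on the same 2 arrays. Their log2 ratios had a pooled SD of 0.44 over 2397 genes. This holds nothing of the variation between animals or between repeated arrays. The brightest and next brightest probe sets differed by 2-fold or more in 243 of these genes (10.1%), and had the same sign in 58.3%. Of 84 genes that were 2-fold apart on the brightest probe set and had another, 66 (78.6%) had the same sign on it and 44 (52.4%) were at least 1.5-fold apart the same way. Among all 2397 genes, 16.8% had the next brightest probe set 1.5-fold apart in the direction of the brightest. For the 57 higher genes the median was 1.40 on the brightest and 0.82 on the next probe set, and for the 27 lower genes -1.21 and -0.57.

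The disagreement had a direction. The next brightest probe set had the lower mutant-to-WT ratio in 67.0% of genes, by a median of -0.22, and was at least 2-fold below the brightest in 211 genes and at least 2-fold above it in 32. Among the 641 genes with all signals of at least 500 it was lower in 65.5%, by a median of -0.14. Between the leptin-injected and the saline mutant, over the same probe sets, the share was 50.8% and the median -0.01. In the mouse genotype comparison the share was 60.5% of 5333 genes and the median -0.13. The brightest probe set was chosen by mean signal over WT and both mutant arrays of the species. A high mutant signal thus helps a probe set to rank first, while the saline and leptin-injected mutants count alike. The part of this ranking in the direction was not tested. Whether RNA quality or probe position contributed was not tested, and control probe sets that report on RNA integrity were not used here.

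Genes whose probe sets differed most were Synpo, Adipor2, Elovl5, Nid1, Gpd1 and Bex3. Adipor2, an adiponectin receptor, was lower on its brightest probe set, at 3204 in WT, 1263 in the saline mutant and 1203 in the leptin-injected mutant, and higher on the next, at 557, 1449 and 1169. The glycerol-3-phosphate dehydrogenase Gpd1 gave 11062, 15534 and 17281 on the first and 1087, 281 and 391 on the second. The elongase Elovl5 had log2 ratios of -0.10 and -2.60. Of the 84 genes above, 6 had another probe set 1.5-fold or more the other way: Adipor2, Bex3, Fpgs, Nid1, Tcf7l1 and Trim47. These 6 are counted above by their brightest probe set alone, and their direction differs between probe sets.

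**Figure D5:**
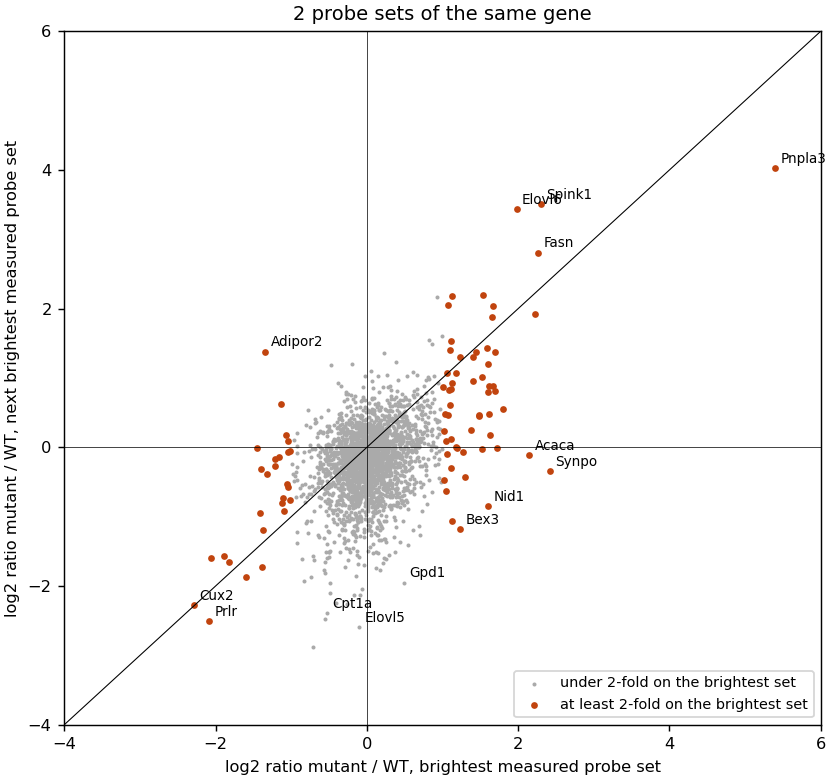
Log2 ratio of the mutant saline over the WT saline signal on the brightest (horizontal axis) and the next brightest probe set (vertical axis) of 2397 genes, with the line of equality. Red points are the 84 genes at least 2-fold apart on the brightest probe set, of which 66 have the same sign on both, and more points lie below the line than above it.

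The same genotype comparison in mice shares no array with the rat one. Over 8303 genes measured in both species by identical symbol, 241 were 2-fold higher and 105 lower in the mutant rat, and 360 and 264 in the mutant mouse. Higher in both were 61 genes, which is 25.3% of the rat list and 16.9% of the mouse list, where 4.34% of the joined genes were higher in the mouse. Lower in both were 15 genes, 14.3% of the rat list and 5.68% of the mouse list, where 3.18% of the joined genes were lower in the mouse. The log2 ratios correlated at r = 0.22 across these genes, which are not independent replicates. The number of arrays, 1 per group in either species, gives no test of a species difference.

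Of the cytoskeleton and annexin list, 7 of 23 genes measured in both species were higher in both, and of the matrix list 1 of 23, Ccn2. Among all genes higher in both were Anxa5 (log2 ratio 3.11 in rat and 2.16 in mouse), Anxa2 (2.20 and 2.99), Lgals3 (2.02 and 3.14) and Ccn2 (2.24 and 1.14). They also included Fgf21 (1.61 and 2.54), Vnn1 (1.35 and 2.88), Cidea (1.42 and at least 7.48) and Dbp (1.00 and 4.62). Lower in both were Igfbp2 (-2.72 and -3.66), Onecut1 (-1.60 and -3.0), Cyp1a2 (-1.49 and -1.89), Cyp8b1 (-1.26 and -1.07) and Igfals (-1.19 and -1.32). Further genes lower in both were the gap junction protein Gjb1 (-1.02 and -1.47) and the chaperone partners Stip1 (-1.59 and -1.34) and Fkbp4 (-1.26 and -1.21).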

How the data were processed

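Trizol extracts of liver were measured on Affymetrix arrays, per the labels. The deposited values are linear intensities per probe set. MAS5, named in the submitters' processing notes, produced them in a version not given in the sources used here. It brings all arrays to the same trimmed mean, here 496 to 497 without 2% at each end. Detection calls were not used here, so dim signals carry noise that the floor only limits.

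Symbols came from the platform annotation: 20826 rat probe sets had 1 symbol, 436 had several and 9780 none, and the last 2 kinds were left out of gene counts. The floor was the 50th percentile of all rat values. A gene was its probe set of highest mean signal over the 3 rat arrays and was measured where WT or mutant saline reached the floor. Mouse genes were treated alike.

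Members, lists and settings were chosen with earlier results of these data known. Named genes were the 15 highest and lowest ratios that stayed 2-fold after quantile normalization and had no probe set 1.5-fold opposite, in each list the 8 members farthest from 0 at most and any member 2-fold apart against the list's median, regulators fixed by name, the 6 genes with most discordant probe sets, genes opposite between the species, the 8 brightest 2-fold genes per direction and the 3 on either side of 2-fold. Sex-linked genes, the sex-sorted lists, the shift between probe sets, genes shared with mice and genes without 2-fold named for contrast were added after the values were seen. A list's description is its count and median, 41 lists and 11 marker lists in all. Calculations used NumPy 2.4.6 and pandas 2.3.3 in Python 3.11.15 and were tested on simulated data. Alternatives were other scalings, floors, an added constant, the median over probe sets and dropping probe sets shared by several transcripts. No rat sequence was used here.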

Additional observations from a re-analysis of the deposited data

Results flagged for a closer look

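In the mutant liver 12 genes were at least 2-fold apart from WT in opposite directions in rats and mice. They are 0.145% of the 8303 genes measured in both, 3 of 241 rat-higher genes (1.24%, where 3.18% of all were lower in the mouse) and 9 of 105 rat-lower genes (8.57%, where 4.34% of all were higher in the mouse). These differences were not tested, since each group was 1 array, and log2 ratios follow with rat before mouse. Higher in the mutant rat and lower in the mutant mouse were Fabp5, a fatty acid binding protein (2.52 and -2.22), the mucosal glycoprotein Dmbt1 (1.98 and -3.08, the latter a bound) and the immediate early factor Egr1 (1.24 and -1.58). Lower in the rat and higher in the mouse were the cofactor Trim24 (-2.48 and 1.08), the lipase Abhd2 (-2.13 and 2.62), Fabp7 (-1.58 and 1.29) and the fatty acid translocase Cd36 (-1.44 and 3.93). The same held for the growth arrest gene Gadd45b (-1.44 and 1.14, the latter a bound), the carnitine transporter Slc22a5 (-1.42 and 1.5), the cytokine Il33 (-1.39 and 1.01), the deadenylase Noct (-1.34 and 2.09) and the peroxisomal oxidase Hao2 (-1.09 and 1.72, the latter a bound). Cd36, Fabp5 and Fabp7 belong to the fatty acid uptake list, of which 16 genes were measured in both species.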

How the results depend on the processing

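The counts of 294 higher and 142 lower genes depended on the floor: they were 694 and 453 for a floor at the 25th percentile, 112 and 74 for the 75th, and 182 and 94 on log2(signal + floor), because dim genes enter or leave the count. By more than 0.44, the SD between probe sets, the floor moved 3 list medians, pancreas to -0.65 at the 25th percentile, and the cytoskeleton to 0.40 and adipocyte markers to 0.74 at the 75th. Smaller moves of over 1.5 times gave ranges of 0.39 to 0.87 for the matrix, -0.59 to -0.26 for heat shock, 0.17 to 0.56 for the cell cycle, -0.46 to -0.15 for the growth hormone list, 0.29 to 0.46 for the PER and DBP phase and -0.29 to 0.0 for the BMAL1 phase. Quantile normalization gave 302 and 143, median centring 311 and 132, the median over probe sets 272 and 154, and dropping probe sets shared by several transcripts 283 and 138. The growth hormone and sex-dependent list held 0 of the higher and 8 of the lower genes. Leaving it out, a setting chosen after seeing the data, gives 294 and 134 by subtraction alone. Of 147 named genes at 2-fold, 98 of the 120 with a value stayed so at the 75th percentile, 121 of 147 on log2(signal + floor) and 139 to 147 otherwise; none with a value changed direction. Leaving out a replicate was not possible with 1 array per group. No paired analysis was possible because each group is 1 array and the labels carry no replicate numbers. Signal over the floor limits what can be seen: a gene dim on both arrays has no ratio here.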

Other observations

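Probe sets without a single symbol were kept out of all gene counts. Of 3737 that reached the floor, 89 (2.38%) were at least 2-fold higher in the mutant and 102 (2.73%) at least 2-fold lower. The highest of them gave 181 in WT, 2134 in the saline mutant and 1554 in the leptin-injected mutant. The lowest gave 1288, 17.2 and 19.5, at least 13.3-fold lower.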
